A study of Mus musculus with 30 samples.

Results

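The genes described here bring fatty acids from the blood into muscle: the lipase gene Lpl, the gene of its capillary anchor Gpihbp1, the membrane uptake genes Cd36, Slc27a1 and Slc27a4, and the binding protein gene Fabp3. They were chosen by name for this role, and a gene was kept where the deposited table has an entry under its Entrez gene number. That held for 5 of the 6 genes among 16475 genes tested; Fabp3, the fatty acid binding protein of muscle and heart, was not analysed here. The data were 30 arrays of quadriceps muscle from male mice, 1 mouse per array, in 3 groups of 10. HF d56 mice were fed a high fat diet for 56 days and were 20 weeks old. LF d56 mice were kept on a low fat diet for the same 56 days and were also 20 weeks old. LF d0 mice were killed at the start of the intervention at 12 weeks of age. All mice had first been on the low fat diet for a run-in of 3 weeks, and the labels name no genetic change in any group. The labels spell the strain C56BL/6J, and the series text writes C57BL/6J. HF d56 against LF d56 compares the diets at equal age, whereas in both comparisons with LF d0 time on the diet and age cannot be told apart.

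Muscle takes fatty acids from triglyceride-rich lipoproteins and from albumin. Lipoprotein lipase, made by muscle fibres and fat cells, is carried across the capillary wall by GPIHBP1 of endothelial cells, and there releases fatty acids from triglyceride. CD36 at the plasma membrane of fibres and capillaries helps their uptake, the proteins FATP1 (Slc27a1) and FATP4 (Slc27a4) couple uptake to activation with coenzyme A, and binding proteins carry fatty acids inside the cell. Cd36 and Lpl are classic targets of the fatty acid sensing receptors of the PPAR family, and oxidative fibres are known for high uptake capacity.

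Because nuclear receptors of that family act at promoters, the 250 bases before annotated transcription starts are shown for the 2 genes whose levels changed below. The sequences are from RefSeq on GRCm38.p6, whose table had windows for 3 of the 5 genes. Capitals mark a nuclear receptor half-site (AGGTCA on either strand), the GC box (GGGCGG) and the CCAAT box, each searched on both strands. The Cd36 window is chr5:17835897-17836146 on the minus strand, and the Slc27a1 window, the most upstream of 3 for this gene, is chr8:71568621-71568870 on the plus strand. The annotated Cd36 gene spans chr5:17781690-17888959, so its window lies inside the gene, before an internal start. The annotated Slc27a1 gene begins at base 71568728, within its window.
Cd36: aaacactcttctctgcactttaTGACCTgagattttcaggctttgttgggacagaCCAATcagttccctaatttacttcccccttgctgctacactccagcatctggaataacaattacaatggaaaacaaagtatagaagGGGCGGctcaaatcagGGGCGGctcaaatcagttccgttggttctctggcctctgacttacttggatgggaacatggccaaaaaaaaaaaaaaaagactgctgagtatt
Slc27a1: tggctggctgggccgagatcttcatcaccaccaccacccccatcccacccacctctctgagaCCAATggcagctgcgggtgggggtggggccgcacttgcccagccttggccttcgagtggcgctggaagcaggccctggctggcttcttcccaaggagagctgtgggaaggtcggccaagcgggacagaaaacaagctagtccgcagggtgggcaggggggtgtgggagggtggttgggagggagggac
The Cd36 window held 1 half-site, 2 GC boxes and 1 CCAAT box at a GC content of 43.2%. The Slc27a1 window held 1 CCAAT box at a GC content of 66.4%, against a median of 52.4% over all 32851 windows of the same length. The further Slc27a1 windows, not printed here, held 1 GC box at a GC content of 60.8%, and 3 GC boxes and 1 CCAAT box at 58.4%. A half-site was found in 14.0% of all windows, a GC box in 32.7% and a CCAAT box in 33.8%. The direct repeat of the half-site spaced by 1 base, AGGTCANAGGTCA, was in 0.0335% of all windows and in 0 of the 5 windows of Cd36, Slc27a1 and Slc27a4. The half-site is part of the direct repeat, and a match describes letters only.

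Expression is given as the deposited normalized intensity, and differences on its log2 scale. Each array had between 6334 and 6563 entries above an intensity of 20, which was taken as the edge of background. Ckm, the creatine kinase of muscle, read between 20471.8 and 22973.0 on all 30 arrays, so this defining marker of muscle was present. On 9 arrays, 3 of each group, the ratio of 5' to 3' signal of the spiked control transcripts was higher than on the remaining 21; 23.1% of all entries differed between these sets in limma, and 0 of the 5 uptake genes did (adjusted p between 0.121 and 0.739). S100a8, a granule gene of neutrophils, exceeded 100 on 6 HF d56, 4 LF d56 and 7 LF d0 arrays. Levels of Myh7, the myosin of slow fibres, lay on either side of a gap in 15 and 15 arrays, with 5 HF d56, 6 LF d56 and 4 LF d0 arrays above it. In whole muscle, fewer cells of a type and less RNA per cell cannot be told apart.

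Neither gene of the lipase step passed the test in any comparison; over all entries 0.0243% passed in HF d56 against LF d56, 0.85% in LF d56 against LF d0 and 1.59% in HF d56 against LF d0. Lpl, the lipase itself, had intensities from 3072 to 5416.6 with a median of 3944.25 in HF d56 muscle. It ran from 3016.3 to 4261.1 with a median of 3712 in LF d56 muscle, and from 3122.3 to 4215.9 with a median of 3564.75 in LF d0 muscle. The 3 groups overlapped, and the LF d0 range lay inside the LF d56 range. Of the 10 HF d56 arrays, 3 were above the highest LF d56 array, and 3 above the highest LF d0 array. Lpl differed by 0.10 ± 0.09 (log2, SE, n = 10 each) in HF d56 against LF d56, with a 95% interval from -0.07 to 0.28 (limma, adjusted p = 0.998). Without HF d56 replicate 7 that difference was 0.05, in the set of 21 arrays it was 0.0098 and in the set of 9 it was 0.32. Without arrays with S100a8 above 100 it was -0.045, in a fit that also drops the HF d56 arrays of highest slow fibre level. Lpl differed by 0.01 in LF d56 against LF d0 (limma, adjusted p = 0.982) and by 0.11 in HF d56 against LF d0 (adjusted p = 0.710).

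Gpihbp1, the endothelial anchor, ran from 359 to 641.7 with a median of 494.15 in HF d56 muscle. It ran from 343.1 to 633.4 with a median of 442.65 in LF d56 muscle, and from 395.2 to 593.4 with a median of 469.05 in LF d0 muscle. The LF d0 range lay inside the HF d56 range, and the highest LF d56 array was close to the highest HF d56 array. The difference was 0.14 ± 0.11 in HF d56 against LF d56 with an interval from -0.09 to 0.37 (limma, adjusted p = 0.998), -0.11 in LF d56 against LF d0 (adjusted p = 0.815) and 0.03 in HF d56 against LF d0 (adjusted p = 0.977).

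**Figure D1:**
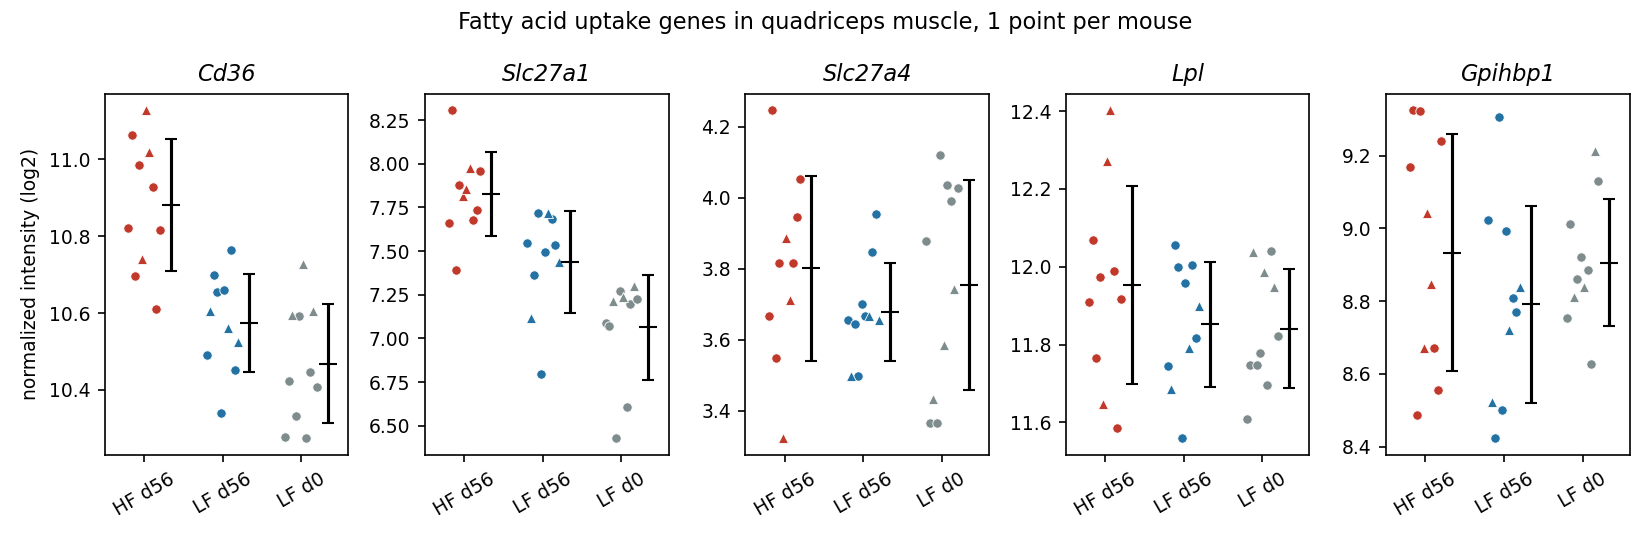
Normalized intensity (log2) of the 5 genes in HF d56, LF d56 and LF d0 quadriceps, 1 point per mouse, with the mean and SD beside each group (n = 10). Triangles are the 9 arrays with high spike-in 5' to 3' signal and circles the other 21. Slc27a1 of all HF d56 arrays lies above that of all LF d0 arrays, and the other genes' groups overlap.

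Of the membrane genes, 2 passed the test, both in HF d56 against LF d0, where 1.59% of all entries did. Cd36, the scavenger receptor that helps fatty acids enter the fibre, ran from 1564.6 to 2239.1 with a median of 1879.3 in HF d56 muscle. It ran from 1295.4 to 1738.6 with a median of 1534.5 in LF d56 muscle, and from 1237.9 to 1695.7 with a median of 1384.4 in LF d0 muscle. Every HF d56 array was above the LF d56 mean and 7 of 10 were above the highest LF d56 array, so the diet groups overlapped in their tails. Cd36 differed by 0.31 ± 0.07 in HF d56 against LF d56 (1.24-fold, interval 1.12 to 1.36), with an adjusted p = 0.102 in limma and rank 16 among all entries. It passed the test in HF d56 against LF d0, where it rose by 0.41 ± 0.07 (1.33-fold, interval 1.21 to 1.47, adjusted p = 0.000506), with 10 of 10 HF d56 arrays above the LF d0 mean. In LF d56 against LF d0 it differed by 0.11 ± 0.07 (adjusted p = 0.641).

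Slc27a1 encodes FATP1, a transport protein of muscle and fat that also activates the fatty acid it takes up. It ran from 167.8 to 316.9 with a median of 228.35 in HF d56 muscle, from 111 to 210.5 with a median of 182.8 in LF d56 muscle, and from 86.1 to 157.8 with a median of 147.6 in LF d0 muscle. All 10 HF d56 values were above all 10 LF d0 values, a lack of overlap seen in 0.194% of all entries, while LF d56 overlapped both other groups. Slc27a1 rose by 0.76 ± 0.12 in HF d56 against LF d0 (1.69-fold, interval 1.43 to 2.01, limma adjusted p = 0.000222). The steps on either side did not pass: 0.39 ± 0.12 in HF d56 against LF d56 (adjusted p = 0.542) and 0.38 ± 0.12 in LF d56 against LF d0 (adjusted p = 0.168). The LF d56 arrays are shared by those 2 differences, and the LF d0 arrays by 2 of the 3 comparisons.

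Slc27a4, which encodes FATP4, was near background: intensities ran from 10 to 19 with a median of 14.1 in HF d56, from 11.3 to 15.5 with a median of 12.65 in LF d56, and from 10.3 to 17.4 with a median of 14.05 in LF d0. No array exceeded 20, so the size of a difference is poorly fixed for this gene. The differences were 0.12, -0.08 and 0.05 in HF d56 against LF d56, LF d56 against LF d0 and HF d56 against LF d0 (limma, adjusted p = 0.998, 0.883 and 0.944).

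Counted together, 0 of the 5 genes passed the adjusted threshold in HF d56 against LF d56, where 0.0243% of all entries did, and 2 of 5 had an unadjusted p under 0.05, as did 5.1% of all entries (limma). In LF d56 against LF d0, 0 of 5 passed against 0.85% of all entries, and 1 of 5 had an unadjusted p under 0.05 against 10.1%. In HF d56 against LF d0, 2 of 5 passed against 1.59% of all entries, both upward against 0.783%, and the same count of 2 had an unadjusted p under 0.05 against 11%. The groups did not overlap for 0 of 5 genes in HF d56 against LF d56 (0.0121% of all entries), for 0 of 5 in LF d56 against LF d0 (0.121%) and for 1 of 5, Slc27a1, in HF d56 against LF d0 (0.194%). The median of the 5 differences was 0.14 in HF d56 against LF d56, 0.01 in LF d56 against LF d0 and 0.11 in HF d56 against LF d0, beside medians of 0.003, 0.001 and 0.002 over all entries. In HF d56 against LF d56 all 5 differences were above 0, as were 51.5% of all differences.

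**Figure D2:**
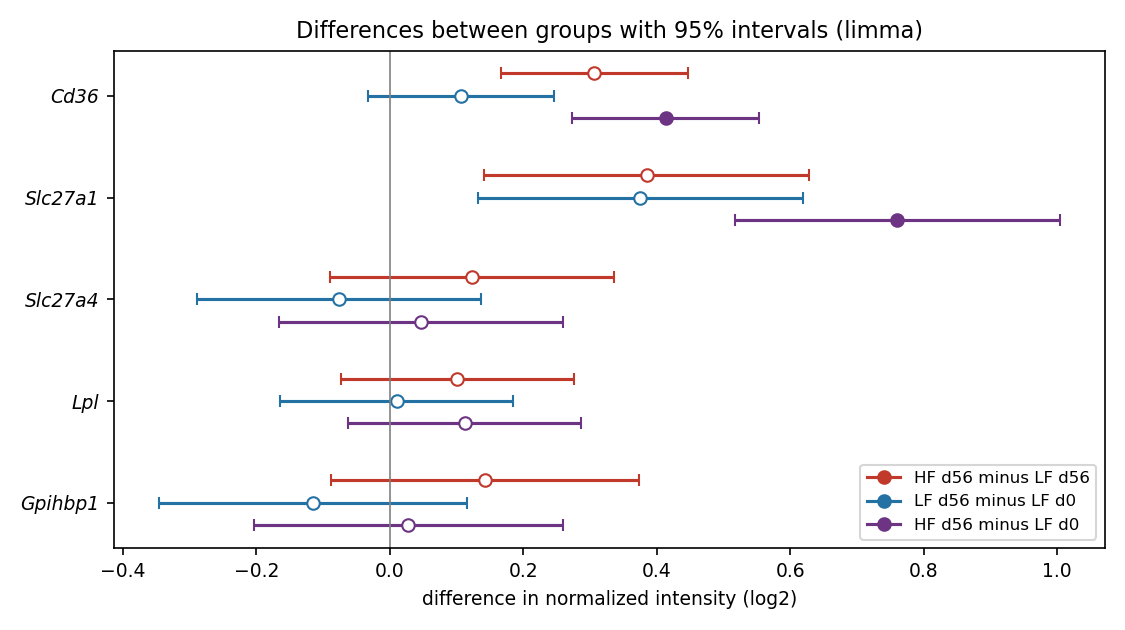
Differences in normalized intensity (log2) with 95% intervals from limma for the 5 genes in the 3 comparisons named in the legend (n = 10 mice each). Filled points passed the adjusted threshold of 0.05: Cd36 at 0.41 and Slc27a1 at 0.76 in HF d56 against LF d0.

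Both calls in HF d56 against LF d0 held within the set of 21 arrays (Cd36 0.45, adjusted p = 0.00378, and Slc27a1 0.82, adjusted p = 0.00943, limma), and neither passed within the set of 9 (0.32 and 0.63). They were lost when arrays with S100a8 above 100 were left out (limma, Cd36 0.28, adjusted p = 0.534, and Slc27a1 0.54, adjusted p = 0.527). That fit leaves 4 HF d56, 6 LF d56 and 3 LF d0 arrays. The mean level of 8 slow fibre genes (log2) was 4.43 to 7.40 on the HF d56 arrays left and 7.77 to 9.11 on those left out. It was 4.66 to 9.04 on the LF d56 arrays left and 4.97 to 8.54 on the LF d0 arrays left. S100a8 and slow fibre level thus cannot be told apart in that fit, and the part of each was not tested. Markers of fat cells moved with the same comparison. In HF d56 against LF d0, 5 of 9 measured adipocyte markers rose, as did 0.783% of all entries (limma). The median difference of the 9 was 0.82, and Adipoq, the adiponectin gene, rose by 1.11. Thrsp, the 1 marker of the list below 0, was at -0.40, with an unadjusted p under 0.05, and did not pass. The summed intensity of the list ran from 1796.7 to 4851.9 in HF d56, from 2137.0 to 3435.4 in LF d56 and from 1733.4 to 2694.1 in LF d0. None of these markers was at 0, but Lep, the leptin gene, read 4.3 to 8.8 in LF d0. With the mean adipocyte level as a covariate, an alternative chosen after seeing the data, Cd36 differed by 0.35 (adjusted p = 0.188) and Slc27a1 by 0.58 (adjusted p = 0.202). The adipocyte level itself was 7.23 ± 0.55 in HF d56 and 6.25 ± 0.27 in LF d0 (log2, SD, n = 10 each). It moved with the groups, so this fit cannot tell the level and the group apart. The part of fat cells in the result was not tested. In the same comparison 4 of 8 tendon and fascia markers and 1 of 14 endothelial markers fell. Of all entries 1.59% passed in either direction, and 0 of the skeletal muscle, neutrophil, macrophage and slow fibre markers did (limma). The summed tendon and fascia intensity ran from 2017.8 to 3561.2 in HF d56, from 2345.5 to 2915.6 in LF d56 and from 3258.0 to 4877.8 in LF d0, and that of 8 neutrophil genes from 38.0 to 13446.6 in HF d56, from 38.4 to 2612.8 in LF d56 and from 40.4 to 10318.2 in LF d0. The part of these cells was not tested.

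Single settings moved the call of Cd36 in HF d56 against LF d56: with Myh7 as a covariate the difference was 0.32 (limma, adjusted p = 0.0207), and without HF d56 replicate 9 it was 0.34 (adjusted p = 0.0489). Without arrays with S100a8 above 100 it was 0.19 (adjusted p = 0.991), and over all other settings it ran from 0.19 to 0.40. Likewise Slc27a1 in LF d56 against LF d0 passed without LF d56 replicate 5 (0.45, adjusted p = 0.0478) and with the mean endothelial level as a covariate (0.61, adjusted p = 0.0283). It was 0.17 both without arrays with S100a8 above 100 (adjusted p = 0.751) and in the set of 9 arrays (adjusted p = 0.777). That level was 6.16 ± 0.08 in HF d56, 6.08 ± 0.11 in LF d56 and 6.28 ± 0.14 in LF d0 (log2, SD, n = 10 each).

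Other genes of the pathway did not pass in any comparison. From 3 lists of 41 genes, 34 were measured: 13 of lipase maturation and control, 10 of uptake across the plasma membrane, and 11 of binding and activation inside the cell. In each of the 3 comparisons 0 of 34 passed in limma, with an unadjusted p under 0.05 for 3 in HF d56 against LF d56 (5.1% of all entries), 4 in LF d56 against LF d0 (10.1%) and 3 in HF d56 against LF d0 (11%). Their median difference was 0.04 in HF d56 against LF d56, -0.02 in LF d56 against LF d0 and 0.02 in HF d56 against LF d0. Cav1 and Cav2 encode caveolins, the coat of the membrane pits called caveolae. Cav1 ran from 2140.7 to 2774.4 in HF d56 and from 1891.7 to 2626.2 in LF d56, and differed by 0.20 ± 0.06 (limma, adjusted p = 0.551). Cav2 ran from 743.1 to 984.5 in HF d56 and from 652.2 to 851.3 in LF d56, and differed by 0.17 ± 0.06 (adjusted p = 0.733). In both, 8 of 10 HF d56 arrays were above the LF d56 mean.

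Angptl4, a secreted inhibitor of lipoprotein lipase and a PPAR target, was the widest of its list, at 0.35 ± 0.22 in HF d56 against LF d56 (limma, adjusted p = 0.998). Its groups overlapped, with a median of 109.95 in HF d56 and 105.7 in LF d56. Lmf2, related to the lipase maturation factor Lmf1, differed by 0.19 ± 0.10 (adjusted p = 0.991). Of the binding list, Dbi, the acyl-CoA binding protein, differed by 0.10 ± 0.06 (adjusted p = 0.998), and Fabp7 by -0.20 ± 0.08 (adjusted p = 0.941) at intensities of 2.9 to 5.2, which is background.

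**Figure D3:**
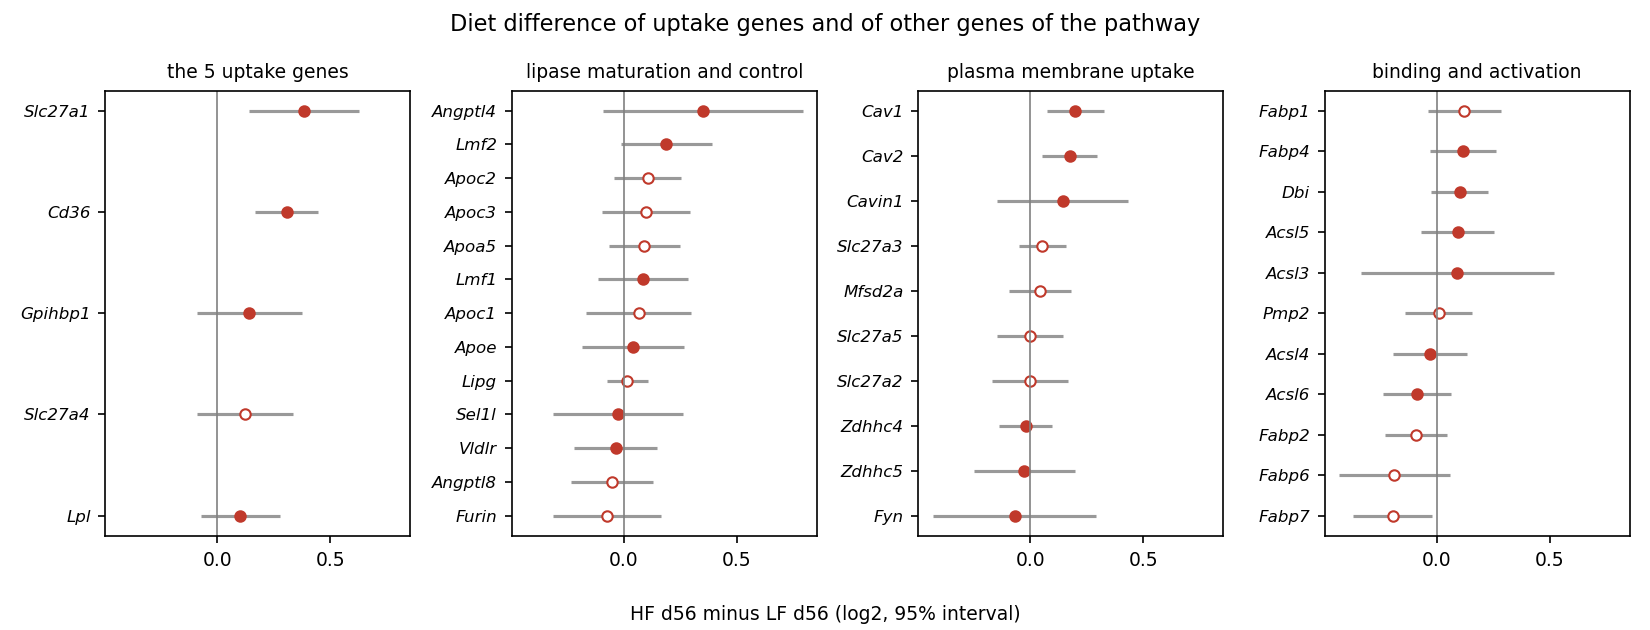
HF d56 minus LF d56 difference (log2, 95% interval, limma, n = 10 each) of the 5 uptake genes and of 34 other genes of the pathway in 3 lists. Open points are genes with a mean intensity under 20 in both groups, and none of the genes passed the adjusted threshold. Angptl4, at 0.35, has the largest difference among the 34.

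Within groups, some of the genes varied together from mouse to mouse. Over deviations from the group means on 30 arrays, 10 pairs were compared by permutation (100000 resamples, two-sided). Cd36 and Lpl were closest, with r = 0.82 and rho = 0.82 (adjusted p = 0.0001 for both, at p = 1e-05, the smallest the resamples can give). The r was 0.80 without the 2 farthest arrays, 0.85 in the set of 21 and 0.75 in the set of 9 (permutation p = 0.355). Among the 15 arrays above the Myh7 gap it was 0.64 (permutation, adjusted p = 0.139 over 20 such pairs), and among the 15 below it 0.83 (adjusted p = 0.00180). Without the 2 farthest arrays these were 0.40 above and 0.68 below the gap. The split at Myh7 was chosen after seeing the data.

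Slc27a1 also varied with 3 of the genes. Its r was 0.60 with Cd36 (rho = 0.63, permutation adjusted p = 0.00245), 0.51 with Gpihbp1 (rho = 0.51, adjusted p = 0.00935) and 0.50 with Lpl (rho = 0.54, adjusted p = 0.00935). Without the 2 farthest arrays these were 0.63, 0.54 and 0.44. In the set of 9 arrays the r with Cd36 was 0.01, against 0.65 in the set of 21. Among the 15 arrays above and the 15 below the Myh7 gap, r was 0.43 and 0.55 with Cd36, 0.44 and 0.49 with Gpihbp1, and 0.16 and 0.39 with Lpl, none past the threshold after adjustment (permutation adjusted p from 0.212 to 0.927). Cd36 and Gpihbp1 (r = 0.37), Lpl and Gpihbp1 (r = 0.31) and all 4 pairs with Slc27a4 did not pass (permutation adjusted p from 0.114 to 0.767).

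Lpl was set beside slow fibre content. On the 15 arrays above the Myh7 gap it was 12.01 ± 0.15 (log2, SD), and on the 15 below it 11.75 ± 0.13. Means of the other genes were higher above the gap too: Slc27a1 7.59 against 7.30 and Gpihbp1 8.98 against 8.78. Cd36 was at 10.72 against 10.56 and Slc27a4, near background, at 3.79 against 3.70. The same 30 arrays were also split by S100a8. Lpl was higher on the 17 with S100a8 above 100, at 11.97 against 11.77 on the other 13. So were Gpihbp1 at 8.97 against 8.76 and Cd36 at 10.70 against 10.57. Slc27a1 was at 7.46 against 7.43 and Slc27a4 at 3.74 against 3.75. These are descriptions, with no test. Within the 15 below the gap, Lpl and the mean level of 8 slow fibre genes had r = 0.76 (rho = 0.70), and r = 0.63 without the 2 farthest arrays. This did not pass after adjustment over 10 relations (permutation p = 0.00553, adjusted p = 0.0553 for r and 0.147 for rho). Within the 15 above the gap r was -0.04 (permutation p = 0.859). Cd36 gave 0.42 below and 0.14 above the gap, neither past the threshold after adjustment. Over all 30 arrays both relations passed among 35 pairs of gene and marker list (permutation adjusted p = 0.00035 for Lpl and 0.0236 for Cd36). No pooled r is given because the arrays fall on both sides of the gap. The neutrophil pairs among the 35 used only the 17 arrays with S100a8 above 100. The slow fibre level itself was 7.48 ± 1.78 in HF d56, 7.70 ± 1.81 in LF d56 and 7.11 ± 1.56 in LF d0 (log2, SD, n = 10 each), so the spread within a group exceeded the gaps between groups.

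Of the other marker levels in the same 35 pairs, only the relation of Slc27a4 with skeletal muscle genes passed (r = -0.55, rho = -0.56, permutation adjusted p = 0.0423), and it was -0.52 without the 2 farthest arrays, -0.52 in the set of 21 and 0.22 in the set of 9, for a gene at background. Gpihbp1, made by endothelial cells, had r = -0.04 with the mean level of 14 endothelial markers (rho = -0.04, permutation adjusted p = 0.914). Pecam1, one of these markers, read 148.3 to 289.5 in HF d56, 131.6 to 288.6 in LF d56 and 152.9 to 323.7 in LF d0, and Cdh5 exceeded 20 on 9 of 30 arrays.

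**Figure D4:**
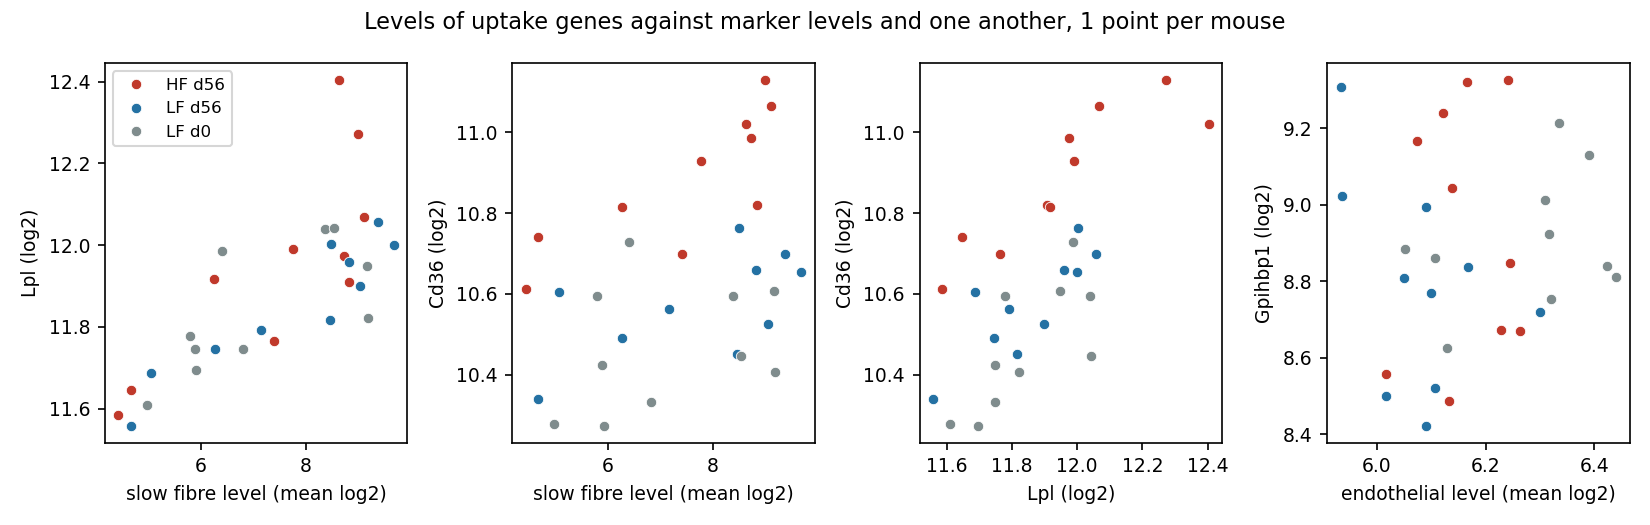
Lpl and Cd36 (log2) against the mean slow fibre level, Cd36 against Lpl, and Gpihbp1 against the mean endothelial level, 1 point per mouse, colours as groups HF d56, LF d56 and LF d0. Cd36 and Lpl rise together within groups (r = 0.82 over deviations from group means), and Gpihbp1 shows no trend with the endothelial level (r = -0.04).

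The genes most like each uptake gene were taken as the 3 highest r over 30 arrays after group and array set were fitted, among entries with a mean intensity of at least 20. Cd36 was followed by Eci1 (r = 0.86), Ech1 (0.83) and Tmem65 (0.81); Eci1 and Ech1 encode enzymes that prepare unsaturated fatty acids for oxidation. Ech1 was 1 of the 4 genes past the test in HF d56 against LF d56, at 0.41 (limma, adjusted p = 0.0383). Slc27a1 was followed by Ivd, an enzyme of leucine breakdown, by Suclg2, a citric acid cycle subunit (both r = 0.86), and by Coq8a, needed for coenzyme Q (0.82). Lpl was followed by Ldhb, the lactate dehydrogenase subunit of oxidative tissue (0.88), Myl3, a myosin light chain of slow fibres and heart (0.87), and Actn2, an actinin of the Z disc (0.86). Gpihbp1 was followed by Jdp2 (0.80), Pmp22 (0.79) and Arrdc2 (0.79), and Slc27a4 by Ctsf (0.70), Ppa1 (0.68) and Arf6 (0.67). Some of these moved with the fit: with group alone, Ctsf was at 0.32 and Tmem65 at 0.55. In the set of 9 arrays Suclg2 was at 0.54, Ctsf at 0.34 and Arf6 at 0.20. Each was picked as 1 of the 3 highest among at least 6268 entries, a choice that favours high values. All 30 values of a pair come from the same arrays, so the r are descriptions, with no p.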

How the data were processed

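The deposited values are linear intensities, 1 for each gene on each array; the authors used GCRMA per the submitters' processing notes, which give no version; values ran from 1.2 to 30599 and array medians from 8.9 to 9.4. Deposited intensities were turned to log2 without a pseudocount. Of 16539 entries, 64 controls were left out and 16475 tested with limma 3.58.1 in R 4.3.3 (all 30 arrays in 1 fit, group as the only factor, eBayes without trend), with Benjamini-Hochberg adjustment over all entries and a threshold of 0.05. Correlations were made in Python 3.11.15 with 100000 resamples, permuted within groups, and the scripts were tested on simulated data. Each array is 1 mouse per the labels, and their number limits the precision. Named pathway genes were the 2 of smallest p per list in HF d56 against LF d56 and any gene past the threshold in any comparison. Members, lists and tests were chosen with earlier results of these data known. Replicate numbers recur in the 3 groups, but same-numbered arrays deviated together (r above 0.1) in only 3, 2 and 4 of 10 pairs, so arrays were not paired. Array sets are split at the widest gap in spike-in 5' to 3' signal over 4 control pairs.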

Additional observations from a re-analysis of the deposited data

How the results depend on the processing

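The 15 differences were recomputed under 14 other settings and without each of 30 arrays. In HF d56 against LF d0 the 2 calls, Cd36 and Slc27a1, held in every fit that left out 1 array (both called 30 of 30 times, with Cd36 from 0.39 to 0.44 and Slc27a1 from 0.69 to 0.81). They numbered 0 in the set of 9 arrays, without arrays with S100a8 above 100, and with the adipocyte level as a covariate, the last chosen after seeing the data. In HF d56 against LF d56, 1 gene was called with Myh7 as a covariate, and from 0 to 1 without single arrays. In LF d56 against LF d0, 1 was called with the endothelial level as a covariate, and from 0 to 1 without single arrays. Fewer arrays enter the set and S100a8 fits. The HF d56 arrays left in the S100a8 fit also had lower slow fibre levels than those left out. The other causes were not tested.

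Some of the differences that had not passed, up to 0.14 in the main fit, turned sign. In the set of 9 arrays these were Cd36 (-0.079), Slc27a4 (0.019) and Lpl (-0.20) in LF d56 against LF d0, and Gpihbp1 (-0.10) in HF d56 against LF d0. Without arrays with S100a8 above 100 these were Lpl (-0.045) and Gpihbp1 (-0.027) in HF d56 against LF d56, Lpl (-0.036) in LF d56 against LF d0, and Slc27a4 (-0.28), Lpl (-0.081) and Gpihbp1 (-0.029) in HF d56 against LF d0. With Myh7 as a covariate, Lpl was -0.052 in LF d56 against LF d0 and Gpihbp1 -0.0099 in HF d56 against LF d0. With the adipocyte level, Slc27a4 was -0.095 and Gpihbp1 -0.15 in HF d56 against LF d0. Leaving out single arrays took Lpl in LF d56 against LF d0 from -0.015 to 0.043, Slc27a4 in HF d56 against LF d0 from -0.0022 to 0.10, and Gpihbp1 in the same comparison from -0.016 to 0.077.

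With the replicate number as a replicate block, the members called stayed at 0 in HF d56 against LF d56, 0 in LF d56 against LF d0 and 2 in HF d56 against LF d0. Over all entries the block gave 1, 104 and 209 calls, where the fit without it gave 4, 140 and 262. Of the uptake genes, signal near background limits only Slc27a4.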

Other observations

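Beside Fabp7, 4 genes of the binding and activation list stood out at an unadjusted p under 0.05 without passing after adjustment; they were chosen after their values were seen. Fabp4, the fatty acid binding protein of fat cells and capillary endothelium, averaged an intensity of 6604 in HF d56 muscle and 5791 in LF d0 muscle, a difference of 0.18 ± 0.07 (log2, SE, n = 10 each, limma adjusted p = 0.286). Acsl6, an acyl-CoA synthetase, averaged 385 in LF d56 and 329 in LF d0, a difference of 0.23 ± 0.07 (adjusted p = 0.167). Acsl5, a further acyl-CoA synthetase, averaged 26.8 in LF d56 and 30.4 in LF d0, a difference of -0.18 ± 0.08 (adjusted p = 0.405), with 10 of 10 LF d56 arrays below the LF d0 mean. Acsl3, another acyl-CoA synthetase, averaged 107 in LF d56 and 139 in LF d0, a difference of -0.44 ± 0.21 (adjusted p = 0.468). Over all entries, 10.1% had such a p in LF d56 against LF d0 and 11% in HF d56 against LF d0.

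Gpihbp1 and Lpl, whose proteins work together at the capillary wall, had r = -0.49 on the 15 arrays above the Myh7 gap (rho = -0.64) and r = 0.44 on the 15 below it (rho = 0.51), over deviations from group means. Neither passed after adjustment over 20 pairs (permutation adjusted p = 0.212 and 0.346), and the difference between both was not tested.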
